A study of Mus musculus with 4 samples.

Results

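The collagens of connective tissue and periostin were examined in cultures of primary mouse chondrocytes, as genes that such cultures express when fibroblast-like or perichondrial cells are present or when chondrocytes lose their phenotype. The genes were chosen by symbol: Col1a1, Col1a2, Col3a1, Col5a1, Col5a2, Col6a1, Col6a2, Col6a3, Col12a1 and Postn. A probe was taken for a gene when the array gives it a RefSeq transcript of that gene, and this found 9 of the 10 genes, out of 37042 genes or unnamed transcripts kept on the array. Col12a1 was matched to no probe and has no value here. Not all of the 9 encode fibrillar collagens: the collagen VI chains form beaded filaments, and periostin is a matrix protein without a collagen triple helix.

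RNA came from C57BL/6J primary chondrocytes of 6-day-old littermates, which were cultured for 3 days with 10 ng/mL TNF or without it. Cells of Rela fl/fl mice, in which both copies of the gene of the NF-κB subunit p65 carry loxP sites, gave 1 array without TNF and 1 array with it. Cells of mice that also carry Prrx1-Cre, labelled conditional knockout (cKO), gave the other 2 arrays. The Rela fl/fl cells and arrays are called control below, the others cKO-labelled. Prrx1-Cre is active in limb mesenchyme, from which limb chondrocytes, perichondrium and limb fibroblasts all derive, so the recombination it drives is not particular to chondrocytes. Nothing in the sources used here gives the number of animals behind an array. With 1 array in each group, no difference has a replicate check and no test was run, an additive fit of label and TNF (1 residual degree of freedom) included, and the number of arrays limits the precision of every value.

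Collagens I, III and V assemble into the fibrils of bone, tendon, perichondrium and dermis, whereas collagen II and its partners IX and XI form the fibrils of cartilage. Each chain is made as a procollagen, hydroxylated and folded in the endoplasmic reticulum with the chaperone Serpinh1, trimmed outside the cell by enzymes such as Bmp1, and cross-linked by lysyl oxidases. Chondrocytes cultured as a monolayer are known to lose collagen II and to make more collagen I, a change called dedifferentiation. TNF is an inflammatory cytokine that activates NF-κB, in which Rela is the main activating subunit.

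Stretches of 250 bases before the annotated start are shown for 3 genes whose signals are described most closely below: Col1a2 and Col3a1, chains of fibril-forming collagens, and Postn, the gene with the widest range over the arrays. They are from RefSeq on GRCm38.p6, all on the + strand, written 5′ to 3′. Capitals mark matches to CCAAT, to TATAAA and to GGGCGG (the GC box). The windows are chr6:4505368-4505617 for Col1a2, chr1:45311288-45311537 for Col3a1 and chr3:54360857-54361106 for Postn, the latter being the second of 2 annotated starts of that gene.
Col1a2: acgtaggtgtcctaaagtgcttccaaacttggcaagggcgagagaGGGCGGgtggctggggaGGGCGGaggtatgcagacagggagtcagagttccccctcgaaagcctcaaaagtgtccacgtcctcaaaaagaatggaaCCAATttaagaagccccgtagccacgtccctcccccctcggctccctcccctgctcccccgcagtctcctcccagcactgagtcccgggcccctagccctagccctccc
Col3a1: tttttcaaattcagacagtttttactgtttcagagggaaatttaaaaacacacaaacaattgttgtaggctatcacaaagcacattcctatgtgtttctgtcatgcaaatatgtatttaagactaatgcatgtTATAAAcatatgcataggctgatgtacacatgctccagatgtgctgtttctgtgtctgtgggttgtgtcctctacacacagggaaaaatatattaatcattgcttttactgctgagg
Postn: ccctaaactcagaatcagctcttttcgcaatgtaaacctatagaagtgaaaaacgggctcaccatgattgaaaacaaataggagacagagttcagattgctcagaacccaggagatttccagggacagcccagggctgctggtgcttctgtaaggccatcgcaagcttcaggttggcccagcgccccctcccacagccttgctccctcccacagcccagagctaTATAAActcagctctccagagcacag
In the Col1a2 window, CCAAT lay 109 to 105 bases before the start, and GC boxes began 205 and 188 bases before it. In the Col3a1 window the match to TATAAA lay 117 to 112 bases before the annotated start, and in the Postn window it lay 26 to 21 bases before it. Searched on both strands, CCAAT was present in 33.8% of the 32851 mouse promoter windows of this length, TATAAA in 12.4% and GGGCGG in 32.7%. A match to the NF-κB consensus was present in 7.25% of all windows. Among the 9 windows of the 7 genes in the table, it was found in 1, the second window of Col6a2. GC boxes also lay in the windows of Col5a1 and Col6a2, and the windows of Col6a1 and Col6a3 held none of the letters searched. The windows are shown as context, and matches in them are descriptions.

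The intensity of each spot, as deposited by the authors, was divided by the 75th percentile over its array's transcript spots, and the quotient is called the signal. A signal of 1 is thus the 75th percentile, which stood at 615 and 618 intensity units on the control arrays without and with TNF and at 634 and 590 on cKO-labelled arrays. Signals of 1 gene are compared across arrays, and those of different genes are not, because each probe binds its target differently. Differences are given as log2 ratios between 2 arrays. Their technical spread was taken from 152 probes that the array carries in 10 copies and that are at least as bright as the dimmest of the 9 genes. The spread of a difference between single spots was 0.0846 on the log2 scale, and a difference past 2 spreads is one larger than 0.1692, or 1.12-fold. This spread covers spots within an array, and leaves out differences between cultures, RNA extracts and labelling reactions, so a difference past it is measurable between 2 arrays and may still be one between 2 dishes.

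Several properties of the whole arrays bear on the comparisons. Rela itself was not lower on cKO-labelled arrays: its signal was 28.3 and 34.7 on the control arrays without and with TNF and 33.9 and 40.2 on those labelled cKO. The position of its probe relative to the deleted exons is not given in the sources used here, so the probe checks nothing, and the genotype is written below as a label. Xist, the RNA made from the inactive X chromosome, was detected well above background in control cells alone, and its signal was at least 20.0-fold lower on the cKO-labelled array without TNF. The Y-linked genes Ddx3y and Eif2s3y were 2.81-fold and 3.51-fold higher on the cKO-labelled array without TNF. The sex of the cells and the genotype label therefore cannot be told apart. A response to TNF was present: the chemokine gene Ccl2 was higher with TNF by 5.02 on the log2 scale in control cells and by 3.17 on cKO-labelled arrays, and the stromelysin gene Mmp3 by 4.64 and 2.56. Between 1.04% and 10.7% of the spots of an array lay in patches of bright spots, and spots in patches are named where a described value was read from that spot alone.

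The 9 genes were each read by 1 probe with 1 spot, and all 9 were well above background on the 4 arrays, with no spot saturated or set aside as an outlier. None was 2-fold apart in any of the 4 comparisons. Of all genes measured, 6.73% were 2-fold apart with TNF in control cells, 5.03% with TNF on cKO-labelled arrays, 7.75% between the labels without TNF and 4.26% between the labels with TNF. Most of those genes were dim. Among the 10050 genes at least as bright as the dimmest of the 9, the shares were 0.269%, 0.308%, 0.507% and 0.627%, so a count of 0 among 9 genes of this brightness is close to the background. The widest range over the 4 arrays was 1.52-fold, for Postn, and the narrowest 1.04-fold, for Col1a1. The median range was 0.24 on the log2 scale for the 9 genes and 0.22 for the 10050 genes, whose quartiles were 0.15 and 0.33. The RNA is that of whole cultures, so fewer cells of a type and less RNA per cell cannot be told apart.

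**Figure D1:**
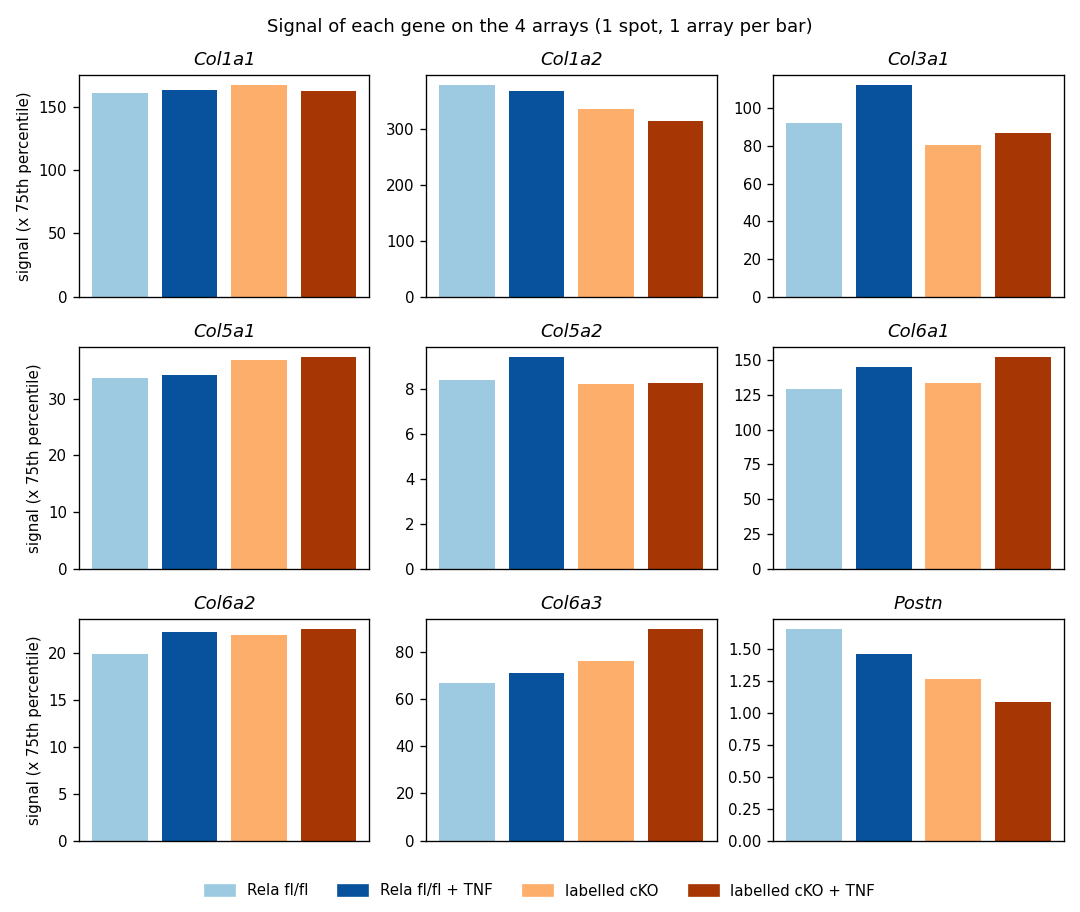
Signal of each of the 9 genes on the 4 arrays, as a multiple of the 75th percentile of the array (vertical axis, linear from 0, its own scale for each gene). Each bar is 1 spot on 1 array. The bars of Col1a1 run from 161 to 167 and are nearly level, those of Postn descend from 1.66 to 1.09, and those of Col6a3 climb from 66.9 to 89.5.

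Collagen I is the main fibril-forming collagen of bone and fibrous tissue, a trimer of 2 chains from Col1a1 and 1 from Col1a2. The signal of Col1a1 (transcript NM_007742) was 161 in control cells without TNF, 163 with TNF, 167 on the cKO-labelled array without TNF and 163 with TNF. These 4 values lay within 0.05 of each other on the log2 scale, less than 1 technical spread. Col1a2 (NM_007743) gave 377, 367, 335 and 313 in the same order. Both cKO-labelled arrays were below both control arrays, by 0.17 without TNF and by 0.23 with it on the log2 scale, and both differences were past 2 technical spreads. Each gene was read by 1 spot, so averaging probes or leaving out patch spots could only repeat a value or drop it. No scaling, quantile normalization, the authors' table and another background correction could change it. In these 4 ways of processing the difference of Col1a2 without TNF fell inside 2 spreads, between -0.1263 and -0.1687, and the one with TNF stayed past them. The difference with TNF itself was -0.04 in control cells and -0.10 on cKO-labelled arrays. Between the labels Col1a1 differed by 0.05 and -0.00.

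Collagen III, a homotrimer found with collagen I in elastic and healing tissue, had the largest difference with TNF in control cells of the 9. Col3a1 (NM_009930) had signals of 92.1 without TNF and 112 with it in control cells, and of 80.5 and 86.8 on cKO-labelled arrays. The control array with TNF was the highest, and both cKO-labelled arrays lay below both control arrays. The log2 difference with TNF was 0.28 in control cells and 0.11 on cKO-labelled arrays. The former was past 2 spreads as reported and in each way of processing that could change it. The latter turned to -0.08 after quantile normalization. Between the labels Col3a1 was lower by 0.19 without TNF and by 0.37 with it.

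Collagen V, a minor component that starts collagen I fibrils and limits their width, was read through 2 of its chains. Col5a1 (NM_015734) had signals of 33.6, 34.3, 36.9 and 37.3, in the order given for collagen I. The cKO-labelled arrays were the higher ones, by 0.13 and 0.12, inside 2 technical spreads, and the spot of the cKO-labelled array without TNF lay in a bright patch. TNF went with differences of 0.03 and 0.02 in Col5a1. Col5a2 (NM_007737) had signals of 8.40, 9.40, 8.21 and 8.24, so that the control array with TNF stood above the other 3. Its log2 difference between the labels was -0.03 without TNF and -0.19 with TNF. The latter was past 2 spreads as reported and in each way of processing that could change it. The Col5a2 spot on the control array without TNF lay in a patch. Col3a1 and Col5a2 are neighbours on chromosome 1, with 0 protein-coding genes annotated between them, and both were brightest in control cells with TNF.

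Collagen VI surrounds cells as a network of beaded filaments, in cartilage mainly around the chondrocyte, and is assembled from 3 chains. Col6a1 (NM_009933) had signals of 129 and 145 in control cells without and with TNF and of 134 and 152 on cKO-labelled arrays. Both arrays with TNF lay above both arrays without it, by 0.17 and 0.18 on the log2 scale. Col6a2 (NM_146007), its neighbour on chromosome 10 with 0 protein-coding genes between, had signals of 19.9, 22.2, 21.9 and 22.5. The control array without TNF was the lowest and the other 3 were within 0.04 of each other. Col6a2 was past 2 spreads in none of the 4 comparisons. Col6a3 (NM_001243008), the longest of the 3 chains, had signals of 66.9, 70.9, 76.2 and 89.5. Both cKO-labelled arrays were above both control arrays, by 0.19 without TNF and by 0.34 with it. Both differences were past 2 spreads as reported and in each way of processing that could change them. With TNF, Col6a3 was higher by 0.08 in control cells and by 0.23 on cKO-labelled arrays. On the cKO-labelled arrays, the differences of Col6a1 and Col6a3 with TNF were inside 2 spreads without scaling, in the authors' table and after quantile normalization, where they were 0.01 and 0.06.

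Postn encodes periostin, which binds collagen I and fibronectin and marks periosteum, perichondrium and tendon. Postn (NM_001198766) was the dimmest of the 9 spots, with signals of 1.66 and 1.46 in control cells without and with TNF and of 1.27 and 1.09 on cKO-labelled arrays. Within each label the array with TNF was the lower one, and both cKO-labelled arrays lay below both control arrays. Its log2 difference with TNF was -0.18 in control cells and -0.22 on cKO-labelled arrays. The first of these fell inside 2 spreads with a different background correction, at -0.13. Between the labels it was lower by 0.38 without TNF and by 0.42 with TNF. Both differences were past 2 spreads as reported and in each way of processing that could change them. In the same comparisons 5% of the 10050 genes at least as bright as Postn lay below -0.31 and -0.27. Postn is by definition the dimmest of them, and larger differences were commoner among dim genes. These limits are thus not those of genes at its own level.

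**Figure D2:**
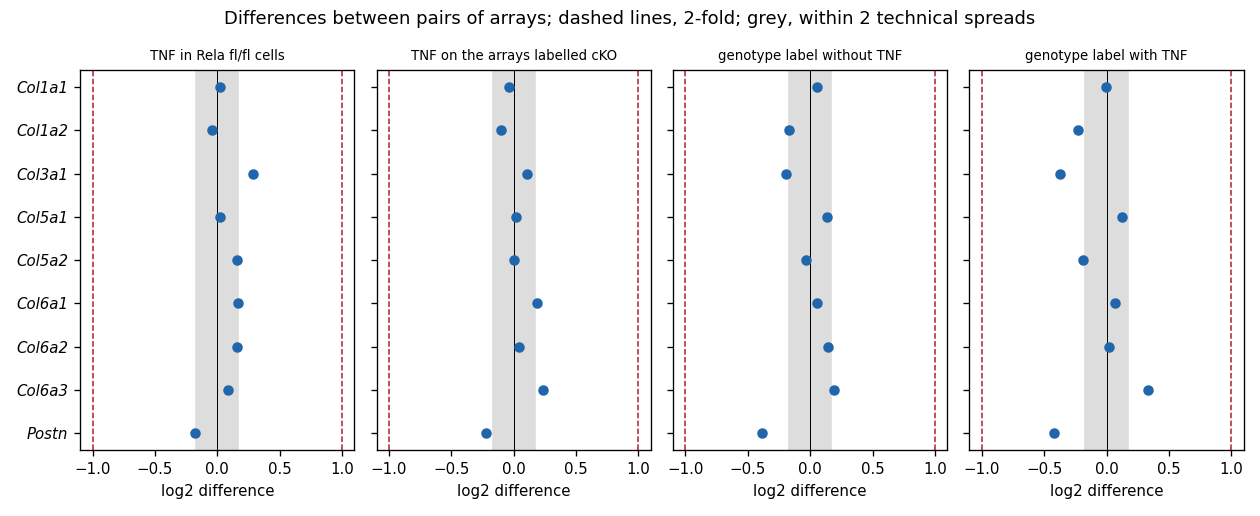
Log2 difference between 2 arrays (horizontal axis) for each of the 9 genes in the 4 comparisons. Grey marks differences within 2 technical spreads (0.1692) and dashed lines a 2-fold difference. No point reaches a dashed line. Col1a2, Col3a1 and Postn lie left of the grey band in both comparisons of the labels, Col1a2 only just so without TNF, while Col6a3 lies right of it.

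The number of the 9 that passed 2 technical spreads is read against the share of the 10050 genes that did, which are at least as bright as Postn and mostly dimmer than Col1a1. With TNF in control cells, 2 of 9 passed, Col3a1 higher and Postn lower, and 19.7% of the 10050 genes did. With TNF on cKO-labelled arrays, 3 of 9 passed, Col6a1 and Col6a3 higher and Postn lower, against 37.2% of those genes. Without scaling, in the authors' table and after quantile normalization, 0 were higher in that comparison, and Col1a2 and Postn were lower, with Col1a1 after quantile normalization. Without TNF, 4 of 9 differed between the labels, Col6a3 higher on the cKO-labelled array and Col1a2, Col3a1 and Postn lower, against 26.6%. Without scaling the balance turned, with Col5a1, Col6a2 and Col6a3 higher and Postn lower. With TNF, 5 of 9 did, Col6a3 higher and Col1a2, Col3a1, Col5a2 and Postn lower, against 35.0%. Among the 370 genes at least as bright as Col1a1, the shares were 7.3%, 38.1%, 14.9% and 18.4% in the 4 comparisons. Without rescaling of the arrays, 5 of 9 passed with TNF in control cells: Col3a1, Col5a2, Col6a1 and Col6a2 higher and Postn lower. The median difference of the 9 was 0.08, 0.02, 0.05 and -0.00 in the 4 comparisons, beside medians of 0.01, 0.06, 0.01 and 0.06 over all genes measured and of 0.01, 0.11, -0.01 and 0.07 over the 10050. The genes did not share a direction between the labels: with TNF, Col6a3 was higher and the 4 others named were lower. These were past 2 spreads as reported and in each way of processing that could change them.

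The difference of the TNF differences, labelled cKO minus control, was largest in size for Col3a1, at -0.18, inside 2 technical spreads of such a difference of 4 spots, 0.239. It passed them without scaling, at -0.29, after quantile normalization, at -0.31, and in the authors' table, at -0.25. That of Col5a2 passed them without scaling, at -0.27, and after quantile normalization, at -0.24. For the other 8 it ran from -0.16 for Col5a2 to 0.15 for Col6a3. The comparisons share arrays, since each array enters 1 comparison of TNF and 1 of the labels, so values in one are not independent of those in another.

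**Figure D3:**
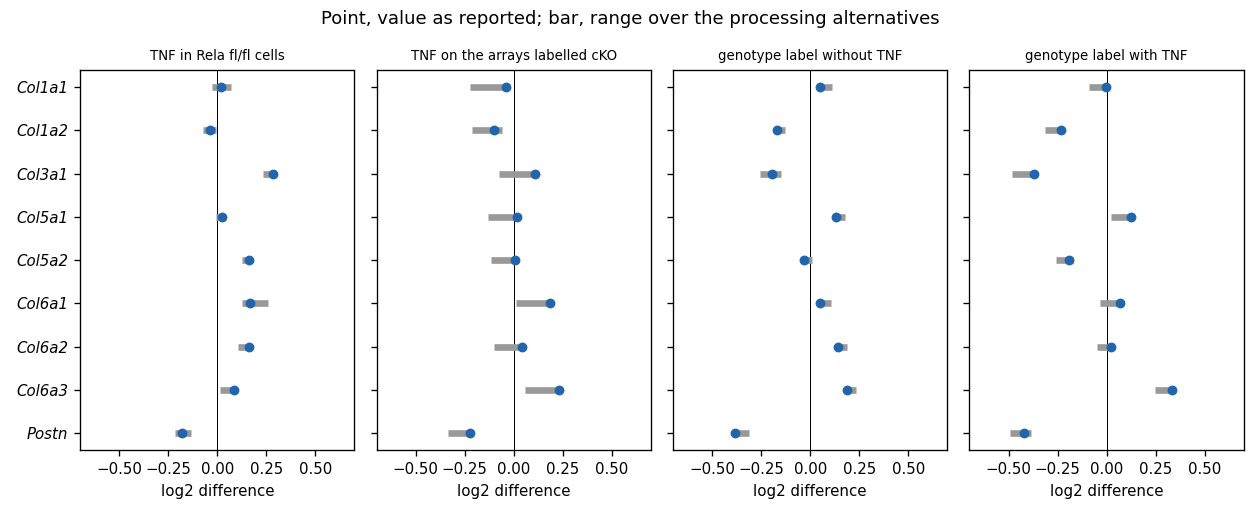
Log2 difference between 2 arrays (horizontal axis) for the 9 genes in the 4 comparisons, as reported (points) and over the alternative ways of processing (grey bars, lowest to highest value). The bars are longest and lie mostly to the left of the points for TNF on cKO-labelled arrays, and for Col3a1 there the bar runs from -0.08 to 0.11.

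The enzymes that fold and modify collagen chains were measured in full, 20 of 20 well above background on the 4 arrays, and none was 2-fold apart in a comparison. Their medians were -0.01, 0.03, -0.06 and -0.04, in the order of the 4 comparisons. Serpinh1, the collagen chaperone, had signals of 155 and 138 in control cells and of 124 and 132 on cKO-labelled arrays. Fkbp10, a prolyl isomerase of the endoplasmic reticulum, was at 192, 181, 196 and 192. P4ha2, a subunit of prolyl hydroxylase, had signals of 69.1 and 96.4 in control cells and of 66.5 and 82.2 on cKO-labelled arrays. Both its arrays with TNF were above both without it, by 0.48 and 0.31.

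Of the 13 genes of procollagen processing and cross-linking, 11 were well above background on the 4 arrays and none was 2-fold apart, with Tll2 and Adamts3 above it on no array. The medians were 0.12, 0.03, 0.09 and 0.03. Bmp1, which removes the C-terminal propeptide, was at 9.30, 9.20, 10.3 and 9.69. Lox, lysyl oxidase, was at 15.5 in control cells without TNF, from a spot in a patch, and at 21.7, 21.1 and 20.7 on the other 3 arrays. With TNF in control cells it was higher by 0.49, and by 0.26 by a second probe with no spot in a patch. Loxl2, a second lysyl oxidase, was at 16.6, 21.6, 19.8 and 31.2, and its difference with TNF on cKO-labelled arrays was 0.66 by this probe and 0.11 and 0.15 by the other 2. For the value 0.15, the spot on the cKO-labelled array without TNF lay in a patch.

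Among 9 genes of collagen breakdown, 6 were well above background on the 4 arrays, and Mmp1a, Mmp8 and Mmp9 on none. Mmp13, the main collagenase of hypertrophic cartilage, was the only one 2-fold apart. Its signal was 6.05 in control cells without TNF and 12.9, 12.4 and 11.5 on the other 3 arrays. It was thus higher with TNF in control cells, by 1.09, and higher on the cKO-labelled array without TNF, by 1.04. On cKO-labelled arrays its difference with TNF was -0.11. Mmp2, a gelatinase, was at 16.8, 17.3, 15.3 and 15.5, and the membrane collagenase Mmp14 at 4.81, 5.31, 4.49 and 4.26, the spot of the value 4.49 lying in a patch.

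Other collagens of connective tissue were measured for 15 genes, of which 9 stood well above background on every array, with Col6a4, Col6a5 and Col6a6 on none. Col5a3, the third collagen V chain, had signals of 1.32 and 3.95 in control cells without and with TNF and of 1.15 and 1.76 on cKO-labelled arrays. Its spot lay in a bright patch on the array with the value of 3.95, and the 2-fold differences of this list rest on that spot. Col14a1, a collagen on the fibril surface in tendon and skin, was at 2.17, 2.12, 1.67 and 1.37. It was lower by label by 0.38 without TNF and by 0.64 with TNF, and a second probe of the gene gave 1.02 and 1.03 lower.

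Markers of the cell types that such a culture can hold were set beside these values. All 19 chondrocyte markers were well above background on the 4 arrays, and Col2a1, the cartilage collagen, was at 594, 607, 582 and 607. The median difference of the list was -0.22 with TNF in control cells, 0.05 with TNF on cKO-labelled arrays, -0.64 between the labels without TNF and -0.40 with TNF. Sox6 was 2-fold lower with TNF in control cells. Between the labels Sox6, Col9a2, Matn1 and Snorc were 2-fold lower without TNF, and with TNF Matn1 was, whose signals were 89.9, 73.4, 24.9 and 32.3. Col10a1, the collagen of hypertrophic chondrocytes, stood the other way, at 8.19, 7.23, 14.6 and 14.1, and was higher by label by 0.83 without TNF and by 0.97 with it. Sox5 was higher by 0.30 without TNF and by 0.05 with it. Acan, the core protein of aggrecan, was at 99.9, 81.5, 65.9 and 58.8, and Sox9, the master regulator of chondrocytes, at 14.1, 13.5, 12.7 and 12.4. The summed signal of the chondrocyte list, in which bright probes such as that of Col2a1 weigh most, was 2209, 2079, 1633 and 1707. Sums are for comparison between arrays and not between lists, and that of the 9 genes ran from 861 to 926. Spots in patches were that of Sox6 on the control array without TNF, of Col9a2 on the control array with TNF and of Acan on the cKO-labelled array with TNF, and 1 of the 10 Sox9 spots on each of 2 arrays. The part that sex or the make-up of the cultures had in these differences was not tested.

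Markers of fibroblasts and perichondrium were all well above background, 22 of 22 on the 4 arrays. Their medians were 0.07, 0.14, 0.03 and 0.17, and the summed signal was 928, 999, 1129 and 1117. Fn1, fibronectin, was at 480, 497, 496 and 477. The intermediate filament gene Vim was at 190, 221, 289 and 277 and S100a4, a calcium-binding protein of fibroblasts and other cells, at 67.5, 76.2, 123 and 135, both highest on cKO-labelled arrays. The S100a4 spot of the control array without TNF lay in a patch, and a second probe with none gave differences by label of 0.83 and 0.82, close to the 0.86 and 0.82 of the first. Acta2, smooth muscle actin, was at 33.4, 30.0, 48.9 and 41.3, with 1 or 2 of its 10 spots in patches on 2 of the arrays. In the other direction, the surface protein gene Thy1 was at 2.56, 1.59, 0.852 and 1.32, and the chemokine gene Cxcl12 at 25.6, 40.7, 12.9 and 10.3. Cd34, a surface protein of vascular and fibroblast progenitors, was 2-fold higher on the cKO-labelled array with TNF, with signals of 2.65, 3.06, 3.60 and 9.13. Dpt was 2-fold lower on both cKO-labelled arrays, with 10 spots on each array, of which 1 lay in a patch on each control array and on the cKO-labelled array without TNF. The fibroblast list therefore held genes that stood in either direction by label, as did the collagens.

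**Figure D4:**
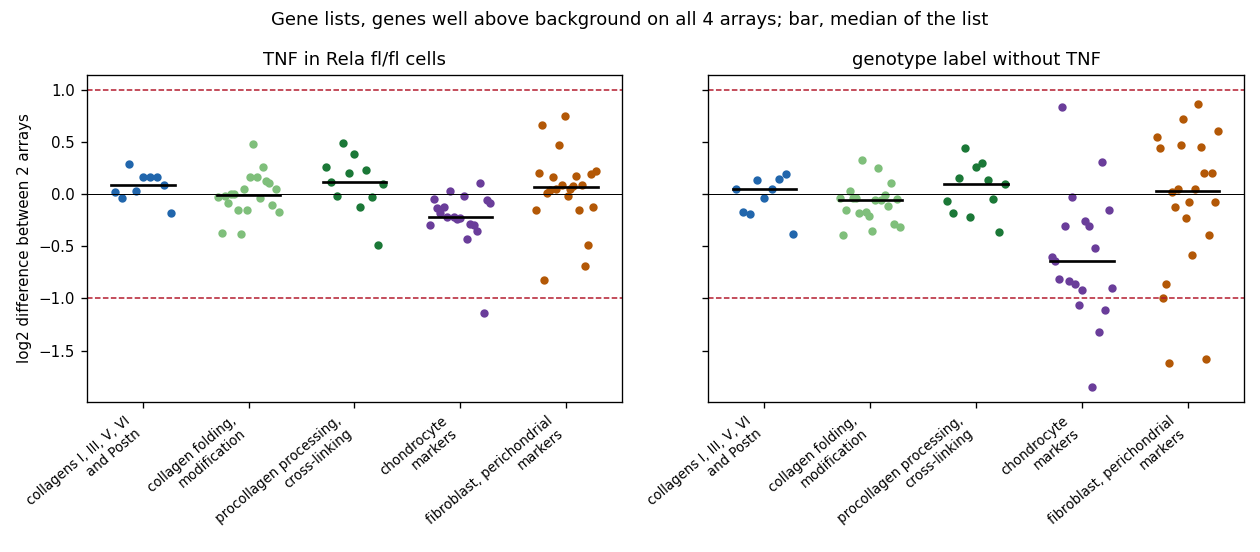
Log2 difference between 2 arrays (vertical axis) for the genes of 5 lists, with TNF in control cells (left) and between the labels without TNF (right). Each point is a gene well above background on the 4 arrays, black bars are medians and dashed lines a 2-fold difference. In the right panel the median of the 9 genes is 0.05 and that of the chondrocyte markers -0.64.

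Markers of other cell types were partly present. On the 4 arrays 5 of 9 leukocyte genes were well above background, 2 of 6 endothelial genes and 2 of 7 muscle and fat genes. Csf1r, a receptor of macrophages, was at 3.05, 2.84, 2.79 and 2.95, and Cd14 at 0.389, 0.567, 0.484 and 0.667. Pecam1, of endothelium, was at 0.157, 0.152, 0.203 and 0.150, and Acta1, of skeletal muscle, at 1.82, 1.70, 2.65 and 2.47. On the other side, Ptprc and Cd52, which all or most leukocytes express, were above background on no array, nor were the endothelial genes Cdh5, Tek and Tie1 or the muscle regulators Myod1 and Myog. Among the 3 probes of Itgam, the 2 of Kdr and the 3 of Csf1r, a bright one stood beside dim ones, so these genes are uncertain. The leukocyte genes Lyz2, Fcgr3, Adgre1 and Laptm5 and the endothelial gene Emcn passed 2-fold in a comparison, each with a spot in a patch. The tendon gene Tnmd was at 0.175, 0.0699, 0.0530 and 0.0546, the mean of 10 spots of which 0 to 2 an array lay in patches, and was 2-fold lower with TNF in control cells and by label without TNF. The fat gene Adipoq was at least 2-fold lower on both cKO-labelled arrays, where it was not well above background without TNF and was read from a spot in a patch with TNF. Of the 7 osteoblast genes measured, 3 were well above background on the 4 arrays. Ibsp, bone sialoprotein, was at 4.16 and 3.49 in control cells and 9.14 and 6.85 on cKO-labelled arrays. Sp7, a regulator of osteoblasts, was at least 2-fold higher on the cKO-labelled array with TNF than on the control array with TNF, where it was not well above background. On that control array it was also at least 2-fold lower than on the control array without TNF. The 6 tendon and synovial genes were well above background on the 4 arrays, and Fmod, a small proteoglycan on collagen fibrils, was at 92.4, 92.5, 88.9 and 83.0.

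Genes of the TGF-β pathway, the best known inducers of collagen transcription, were well above background in 12 of 12 cases. Tgfb1, a ligand, was at 0.976, 1.21, 0.970 and 1.33. Ccn2, a matricellular target of the pathway, was at 181, 173, 161 and 175. Its values with TNF differed by -0.07 in control cells and by 0.12 on cKO-labelled arrays.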

How the data were processed

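Spot intensity was deposited by the authors for 4 one-colour Agilent arrays (SurePrint G3 Mouse), written by Agilent Feature Extraction 10.10.1.1, which corrects for background and spatial trends and sets marks for outliers and for signals well above background. A second deposited table, of scaled intensity, had columns that equalled the processed intensity times 1.83, 1.77, 1.79 and 1.78 and had medians of 82.4, 74.2, 88.5 and 69.4; the basis of these factors is not given in the sources used here.

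From the deposited intensity, log2 values were lowered by the 75th percentile over the 59305 transcript spots of the array. Outlier spots (138 to 225 an array) were left out, spots of a probe averaged, and the brightest probe kept for each gene. Of 55681 probes, 27208 were given a symbol through their RefSeq accession and 55619 were kept. The share of probes well above background was 50.9% to 58.1%. Where 1 of 2 arrays was not well above background, its value was set no lower than the array's lowest signal that was, and the difference is then a bound. The limit was a log2 difference of 1. A spot lay in a patch with 3 or more spots, at least 2-fold brighter on that array alone, within 5 rows and 2 columns.

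The genes, the 12 other lists and the alternatives were chosen with earlier results of these data known. Other genes named are those 2-fold apart (not all are reported here), a list of landmark genes and bright markers, with a few (P4ha2, Fkbp10, Loxl2, Vim, S100a4, Acta2, Col10a1, Sox5, Csf1r, Cd14, Pecam1, Acta1 and the sex-linked and TNF check genes) picked after their values were seen. The array files name the assembly mm9, and promoter coordinates are of GRCm38.p6. The counting of differences and patches was tested on simulated data. Alternatives were no scaling, quantile normalization, the authors' table, normexp background correction (offset 50), the mean of all probes, patch spots left out, limits of 1.5-fold and 3-fold and a filter on both arrays. Python 3.11.15, numpy 2.4.6, pandas 2.3.3, matplotlib 3.10.9, R 4.3.3 and limma 3.58.1 were used.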

Additional observations from a re-analysis of the deposited data

Results flagged for a closer look

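None of the collagens or Postn had TNF differences of opposite sign under the 2 genotype labels that were both past 1 technical spread, but 24 of 117 genes of the other lists did, beside 9.96% of the 10050 genes at least as bright as Postn. The 117 were not limited by brightness. Some of the 24, such as Dpp4 and Tnc, were dimmer than Postn, so the shares are not like for like. Of the 24, 6 were higher with TNF in control cells and 18 lower. This split depends on the scaling: without it 13 were higher and 10 lower, and 1 of the 9, Col5a2, met the criterion. Col5a2 also met it in the authors' table, at 0.13 and -0.11, and after quantile normalization, at 0.13 and -0.11. Col6a2 met it after quantile normalization, at 0.11 and -0.10. Values are given for the 8 that the rule for named genes had picked. The difference between the 2 TNF differences (labelled cKO minus control, log2) was not tested, since there is 1 array in each group. Mmp13 had the value -1.20, from 1.09 in control cells and -0.11 on cKO-labelled arrays. Cxcl12 had -0.99, from 0.67 and -0.33. The other 6 of these 8 lay the other way round, lower with TNF in control cells and higher with it on cKO-labelled arrays. Of these Thy1 had 1.32, from -0.69 and 0.63, and Tnc, a matrix glycoprotein, had 1.05, from -0.49 and 0.56. A second probe of Tnc reversed this, at -0.85 from -0.14 and -0.99, with both of its spots without TNF in patches. The cartilage genes Matn1, Snorc and Col9a2 had 0.67, 0.65 and 0.40, the Col9a2 spot of the control array with TNF lying in a patch. The chaperone Serpinh1 had 0.26, from -0.17 and 0.09, the latter within 1 technical spread of 0 without scaling. So, without scaling, was the Col9a2 difference with TNF on cKO-labelled arrays, which read 26027 and 27164 intensity units.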

How the results depend on the processing

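The count of collagen genes or Postn 2-fold higher or lower stayed 0 without scaling, after quantile normalization, in the authors' table and with normexp background correction. At a limit of 1.5-fold it was 0 too. The mean of all probes, patch spots left out, the 3-fold limit and the filter on both arrays could only return 0. The cause of the following moves was not tested. The median of the 9 genes for TNF on cKO-labelled arrays, 0.02, became -0.0875 without scaling, -0.1148 after quantile normalization and -0.0949 in the authors' table. The median of the difference of TNF differences, -0.06, became -0.1686 without scaling and -0.1560 after quantile normalization. Col3a1 for TNF on cKO-labelled arrays, 0.11, became -0.0754 after quantile normalization and -0.0042 in the authors' table. For this comparison, leaving out the scaling moved the median of all genes by -0.10, the authors' table by -0.11 and quantile normalization by -0.01. Of 264 recalculated differences of single genes, 216 stayed within the technical spread. This tally includes averaging probes and leaving out patch spots, which could only repeat the value of a gene read by 1 spot. The share that stayed is therefore inflated. The 46 differences that moved further and the 2 that reversed all came from the remaining ways of processing. No paired analysis was run, each group has 1 array, and no result here comes from a test.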
